A study of Mus musculus with 24 samples.

Results

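The genes described here are 8 fasting-responsive targets of the peroxisome proliferator-activated receptors (PPARs), named in advance as Pdk4, Angptl4, Ucp3, Acot1, Acot2, Plin2, Plin5 and Cpt1a and found by their gene symbols. All 8 had values in every heart, among 15667 genes listed for uninjected hearts and 15327 listed for injected hearts, of which 14016 were in both tables. The choice rule used no expression value of these samples, although earlier results of these data were known when the genes were proposed. On GRCm38, with GENCODE M21 gene models, Acot2 (chr12:83987861-83993873) and Acot1 (chr12:84009490-84018371) are neighbours on the plus strand. Ucp3 (chr7:100472990-100486432) and Cpt1a (chr19:3322334-3385733) are also on plus strands. Pdk4 (chr6:5483351-5496309), Plin2 (chr4:86648386-86670060), Angptl4 (chr17:33773750-33781830) and Plin5 (chr17:56111601-56117596) are on minus strands. All 8 are protein-coding genes, and each value sums reads over the exons of the gene.

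PPARα, PPARδ and PPARγ are nuclear receptors that bind DNA as pairs with a retinoid X receptor (RXR) and are switched on by fatty acids and their derivatives. During fasting, fatty acids released from adipose tissue reach the heart, and PPAR target genes there raise fatty acid import, storage in lipid droplets and oxidation, while glucose oxidation is restrained. Several of these genes also answer to FOXO factors and to the glucocorticoid receptor, so they are known as fasting genes as much as PPAR genes.

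Messenger RNA was sequenced from hearts (apex per the labels, ventricles per the study's methods) of mice killed on postnatal day 7.5 (P7.5), with 4 hearts in each of 6 groups. The uninjected groups were wild type (WT) and Xinβ KO, a germline knockout in which a LacZ-Neo cassette replaced part of Xirp2, the gene for the intercalated disc protein Xinβ. The injected groups were WT/GFP, Xinβ KO/GFP, WT/YAP and Xinβ KO/YAP, whose pups received an AAV9 vector under the skin on postnatal day 1 (P1). The vector carried GFP as control or the S127A form of human YAP, a growth-promoting transcriptional coactivator freed from Hippo inhibition, behind the cardiac troponin T promoter, which restricts it to cardiomyocytes. All mice were on a C57BL6 background, the WT mice were littermates of the knockouts, and per the study's methods each group mixed males and females. The sources do not tell which hearts share a litter, so the hearts may not be independent. The p values set differences between groups against the spread of hearts within groups, and treat each heart as independent. Feeding state at harvest was not given in the sources used here.

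Uninjected and injected hearts were sequenced separately, with reads of 50 and 150 bases, and normalized in separate tables, so no test crosses the tables. Values are CPM, the usual depth-scaled read count, computed by the authors on scaled library sizes, and they were backed by 20490875 to 31154155 counts in an uninjected heart and 15015038 to 19444404 in an injected heart. The 8 genes themselves drew 894 to 42474 counts each in an uninjected heart. In an injected heart 7 of them drew 470 to 23909 counts, and Angptl4 drew fewer in its lowest heart. Xirp2 stood at 56.0 to 168 CPM in the 12 WT hearts and at 0 to 0.97 CPM in the 12 knockout hearts, so every genotype label held. All 8 cardiomyocyte markers examined were present, and their summed level lay between 50477 and 83812 CPM in every heart. Since whole tissue was sequenced, fewer cells of a type and less RNA per cell cannot be told apart.

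A classical PPAR:RXR site is a direct repeat of AGGTCA with 1 base between the repeats, spelled AGGTCANAGGTCA here, where N is any base. RefSeq promoters (GRCm38.p6, 250 bases before to 50 after the start site) were at hand for 7 of the 8 genes, and both strands were searched. Ucp3 and Plin2 held a stretch that differed from this spelling at 2 of its 12 fixed letters, a closeness reached by 3.86% of 32817 mouse promoters of the same search window. Plin5 came within 3 letters at both of its 2 listed starts, of which the first is shown, as did 24.6% of all promoters. The 250 upstream bases of these 3 genes are shown because their promoters came within 3 letters and also held an intact AGGTCA, which 16.3% of all promoters held on either strand. Capitals mark the closest stretch, which lies on the opposite strand in Plin2, and a match of letters is only a description of the sequence. The regions are chr7:100472741-100472990 on the plus strand for Ucp3, chr4:86670060-86670309 on the minus strand for Plin2 and chr17:56117549-56117798 on the minus strand for Plin5.
Ucp3: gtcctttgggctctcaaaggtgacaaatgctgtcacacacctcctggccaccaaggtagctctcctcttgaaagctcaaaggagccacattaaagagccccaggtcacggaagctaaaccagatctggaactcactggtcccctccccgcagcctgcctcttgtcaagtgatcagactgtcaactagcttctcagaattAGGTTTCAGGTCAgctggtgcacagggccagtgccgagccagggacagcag
Plin2: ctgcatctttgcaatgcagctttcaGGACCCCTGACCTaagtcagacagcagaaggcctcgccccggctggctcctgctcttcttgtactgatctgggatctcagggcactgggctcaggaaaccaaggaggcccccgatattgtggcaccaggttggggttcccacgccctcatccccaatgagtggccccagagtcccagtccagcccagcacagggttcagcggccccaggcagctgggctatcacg
Plin5: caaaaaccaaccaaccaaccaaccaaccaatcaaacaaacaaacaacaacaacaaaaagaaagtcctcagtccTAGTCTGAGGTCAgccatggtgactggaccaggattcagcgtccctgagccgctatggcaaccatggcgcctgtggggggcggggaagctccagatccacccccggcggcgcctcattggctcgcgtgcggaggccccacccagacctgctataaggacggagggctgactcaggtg

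Acot2 also came within 3 letters but held no intact AGGTCA. Pdk4, Acot1 and Cpt1a differed at 4 letters, a distance within which 79.8% of all promoters lie. No letters were compared with expression by a test.

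In uninjected hearts, 7 of the 8 genes rose in Xinβ KO, and for all 8 every KO heart lay above every WT heart. The test was limma on log2(value + 1) over 15598 genes, with Benjamini-Hochberg adjustment and a threshold of 0.05, and folds on this scale slightly understate changes of low genes. Across all genes tested, 3.23% were called higher and 8.01% had all KO hearts above all WT hearts. The median log2 fold change was 1.21 over the 8 genes and 0.00 over all genes.

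Acot1, a cytosolic thioesterase that splits fatty acyl-CoA into free fatty acid and coenzyme A, had the largest difference. It stood at 179, 213, 126 and 98.7 CPM in Xinβ KO hearts 1 to 4 and at 32.4, 35.0, 47.7 and 53.2 CPM in WT hearts. The lowest KO heart was well above the highest WT heart, and the log2 fold change was 1.81 ± 0.25 (SE, adjusted p = 0.00536, limma). Its mitochondrial counterpart Acot2 rose from 111, 114, 104 and 112 CPM in WT to 191, 251, 237 and 152 CPM in Xinβ KO, by 0.88 ± 0.15 on the log2 scale (adjusted p = 0.0119, limma). The 2 genes lie side by side on chromosome 12 and resemble each other in sequence. Of all 50-base windows in their transcripts, 19.2% for Acot1 and 27.7% for Acot2 also occur in another gene, mostly in each other, so the division of reads between them is uncertain. At 150 bases the shares fall to 6.92% and 10.2%.

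Angptl4 encodes a secreted inhibitor of lipoprotein lipase, the enzyme that frees fatty acids from circulating triglyceride. Its level was 151, 141, 161 and 82.4 CPM in Xinβ KO and 45.0, 58.3, 55.3 and 44.1 CPM in WT. KO heart 4 was the lowest of its group and still above all WT hearts, and Angptl4 rose by 1.35 ± 0.21 in log2 units (adjusted p = 0.00789, limma).

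The perilipins coat lipid droplets. Plin2, the widely expressed coat protein, rose from 49.8, 51.1, 47.4 and 49.1 CPM in WT to 92.8, 85.4, 113 and 72.8 CPM in Xinβ KO. Plin5, which ties droplets to mitochondria in oxidative tissue, rose from 72.6, 77.9, 79.2 and 83.0 CPM to 226, 192, 201 and 111 CPM. The WT hearts were tightly grouped for both genes, while KO heart 4 lay lowest of the KO hearts. The log2 fold changes were 0.85 ± 0.13 for Plin2 (adjusted p = 0.00781) and 1.17 ± 0.20 for Plin5 (adjusted p = 0.0113, limma).

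Cpt1a, an outer-membrane carnitine palmitoyltransferase that admits long-chain fatty acids to mitochondria, stood at 184, 309, 343 and 256 CPM in Xinβ KO and 166, 159, 154 and 160.2 CPM in WT. Heart 1 of the KO group was close to the WT range. The rise of 0.73 ± 0.18 on the log2 scale (adjusted p = 0.0415, limma) lost its call without KO heart 2, KO heart 3 or any 1 of the 4 WT hearts, with adjusted p between 0.0946 and 0.118, and also with plain CPM (0.0773) or quantile normalization (0.0663). Ucp3, a mitochondrial carrier of the uncoupling protein family, rose by 1.26 ± 0.25 (adjusted p = 0.0211, limma), from 80.2, 85.1, 72.1 and 76.3 CPM in WT to 194, 191, 306 and 113 CPM. Its call was lost without KO heart 2 or any 1 WT heart, with adjusted p between 0.0560 and 0.0737.

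Pdk4, the kinase that shuts off pyruvate dehydrogenase and so spares glucose, was the gene of the 8 that did not pass. It had 569.7, 1399, 1744 and 804 CPM in Xinβ KO and 336, 477, 465 and 451 CPM in WT. All KO hearts were higher, but they differed among themselves 3.06-fold. The log2 fold change was 1.26 ± 0.32 (adjusted p = 0.0504, limma), and it passed without KO heart 1 or KO heart 4, with adjusted p from 0.0114 to 0.0392. It also passed in edgeR's quasi-likelihood and exact tests and in DESeq2.

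**Figure D1:**
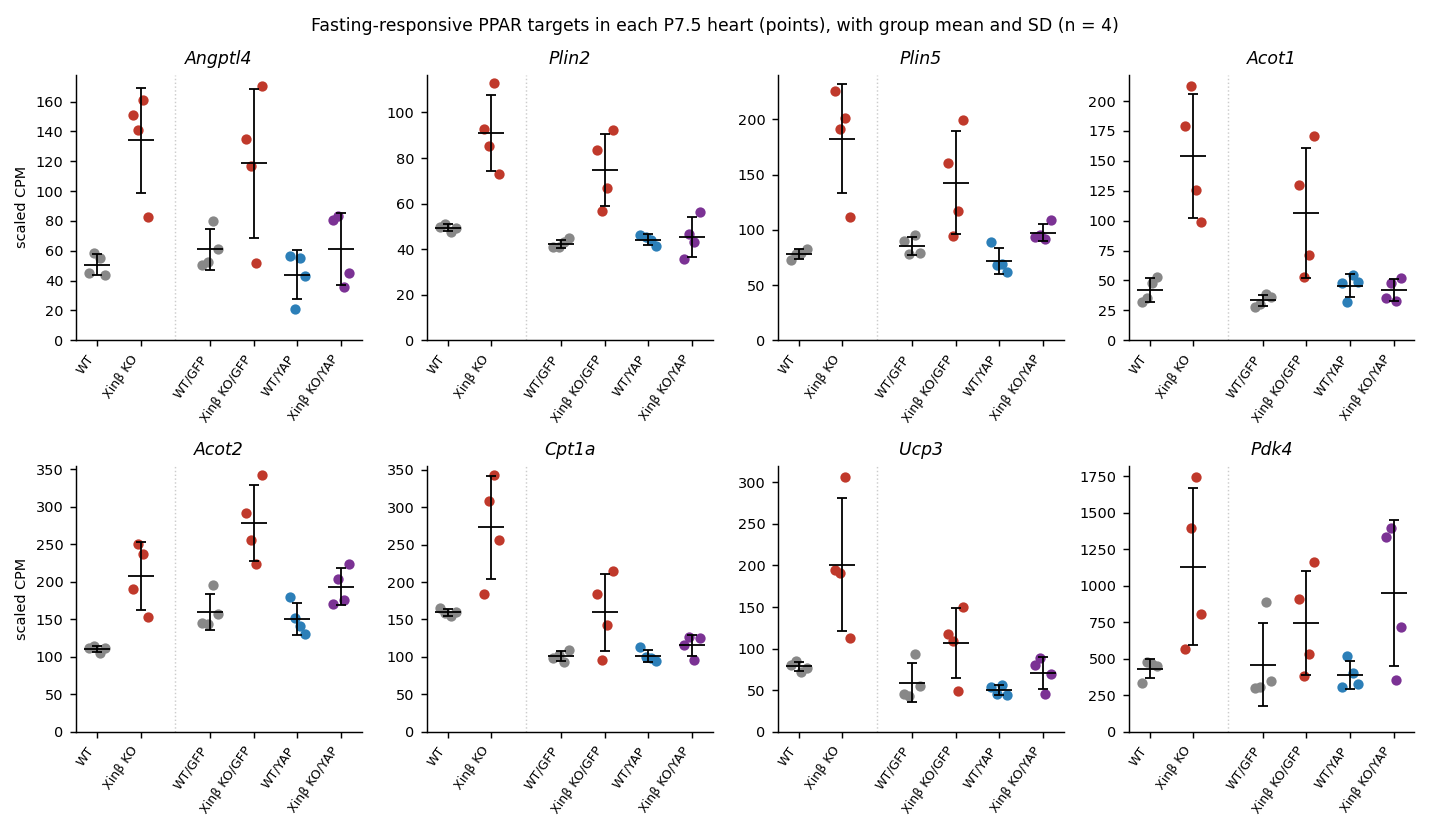
CPM of each gene in each heart (points), with the mean and SD of each group of 4 (black), for the uninjected groups left of the dotted line and the injected groups right of it. Uninjected Xinβ KO hearts (red) sat above uninjected WT hearts (grey) for all 8 genes, and for Plin2, Acot1 and Acot2 the Xinβ KO/GFP hearts sat above all WT/GFP and all Xinβ KO/YAP hearts.

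Under the GFP vector, which carries no YAP, 5 of the 8 genes rose in Xinβ KO and all 8 had positive log2 fold changes. Of 14597 genes tested, 6.43% were called higher. Groups were fully apart with KO on top for 3 of the 8, against 7.32% of all genes. The median log2 fold change was 0.79 over the 8 genes and -0.01 over all genes.

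Acot1 again had the largest difference, with 130.1, 53.3, 71.4 and 171 CPM in Xinβ KO/GFP hearts 1 to 4 and 28.1, 30.5, 38.9 and 35.9 CPM in WT/GFP hearts. The log2 fold change was 1.51 ± 0.28 (adjusted p = 0.00252, limma). Acot2 had 145, 143, 195 and 157 CPM in WT/GFP against 291, 256, 224 and 343 CPM in Xinβ KO/GFP, and rose by 0.79 ± 0.14 (adjusted p = 0.00173, limma). For both thioesterases, heart 4 was the highest of the KO/GFP group and no KO/GFP heart reached down to the WT/GFP range.

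Plin2 rose by 0.78 ± 0.14 in log2 units (adjusted p = 0.00196, limma), from 40.8, 41.2, 43.0 and 44.7 CPM in WT/GFP to 83.4, 56.8, 66.9 and 92.2 CPM in Xinβ KO/GFP. Plin5 had 161, 94.2, 117 and 199.3 CPM in Xinβ KO/GFP and 89.6, 78.4, 94.9 and 78.8 CPM in WT/GFP. KO/GFP heart 2 lay inside the WT/GFP range of Plin5, although the gene passed the test at 0.68 ± 0.18 (adjusted p = 0.0168, limma). Without KO/GFP heart 1, KO/GFP heart 4 or WT/GFP heart 2 it no longer passed, with adjusted p between 0.05004 and 0.0613.

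Cpt1a had 184, 95.8, 142 and 216 CPM in Xinβ KO/GFP and 98.1, 103, 93.3 and 109 CPM in WT/GFP, with KO/GFP heart 2 again inside the WT/GFP range. It passed at 0.59 ± 0.18 (adjusted p = 0.0349, limma) but not without KO/GFP heart 1, KO/GFP heart 4 or any 1 WT/GFP heart, where adjusted p ran from 0.0517 to 0.119. With just the 8 hearts compared in the fit, Plin5 (adjusted p = 0.0802) and Cpt1a (adjusted p = 0.126, limma) lost their calls, and Cpt1a did so with plain CPM (adjusted p = 0.107).

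Angptl4, Ucp3 and Pdk4 did not pass under GFP. Angptl4 had 135, 117, 51.9 and 171 CPM in Xinβ KO/GFP and 50.3, 52.4, 80.2 and 61.0 CPM in WT/GFP, a log2 fold change of 0.85 ± 0.36 (adjusted p = 0.138, limma). Ucp3 had 118, 109, 49.4 and 150.0 CPM against 44.9, 42.7, 94.0 and 54.8 CPM, a log2 fold change of 0.81 ± 0.30 (adjusted p = 0.0858, limma). In both genes KO/GFP heart 3 lay within the WT/GFP range and WT/GFP heart 3 was the highest WT/GFP heart. Without KO/GFP heart 3, Angptl4 passed at 1.203 (adjusted p = 0.0223, limma). Without KO/GFP heart 3 or WT/GFP heart 3, Ucp3 passed at 1.05 to 1.14 (adjusted p from 0.00642 to 0.0285, limma). With all hearts, Angptl4 was called by edgeR's exact test (adjusted p = 0.0313) and Ucp3 by DESeq2 (adjusted p = 0.0253).

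Pdk4 had 911, 383.2, 529.9 and 1166 CPM in Xinβ KO/GFP and 299.5, 308, 888 and 345 CPM in WT/GFP. WT/GFP heart 3 exceeded KO/GFP hearts 2 and 3, and the log2 fold change of 0.73 ± 0.44 had an adjusted p of 0.302 in limma and a 95% interval from -0.20 to 1.66. It was 1.10 without WT/GFP heart 3 (adjusted p = 0.103) and 0.47 without KO/GFP heart 4 (adjusted p = 0.576, limma).

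Active YAP in knockout hearts went with lower levels of the thioesterases and of Plin2. In Xinβ KO/YAP against Xinβ KO/GFP, 3 of the 8 genes fell, against 6.92% of all genes called lower, and the same 3 had groups fully apart, against 8.52% of all genes. The median log2 fold change was -0.52 over the 8 genes and 0.01 over all genes.

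Acot1 stood at 35.4, 48.0, 33.1 and 52.4 CPM in the 4 Xinβ KO/YAP hearts and fell by 1.19 ± 0.28 on the log2 scale (adjusted p = 0.00983, limma). Plin2 stood at 35.6, 46.4, 43.2 and 56.4 CPM and fell by 0.70 ± 0.14 (adjusted p = 0.00356, limma). For Plin2 the highest KO/YAP heart and the lowest KO/GFP heart nearly met, at 56.4 and 56.8 CPM. Acot2 stood at 171, 203, 176 and 223 CPM, just under the lowest KO/GFP heart at 224 CPM, and fell by 0.51 ± 0.14 (adjusted p = 0.0209, limma). That call was lost without KO/GFP heart 1 or 4 or KO/YAP heart 1 or 3, with adjusted p between 0.0583 and 0.0686.

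When the fit held just the 8 hearts compared, Acot1 (adjusted p = 0.0506) and Acot2 (adjusted p = 0.0513, limma) lost their calls and Plin2 kept its own (adjusted p = 0.0377). Acot2 also lost its call with plain CPM (adjusted p = 0.0684, limma). The other 5 genes did not pass. Plin5 stood at 93.6, 95.6, 91.6 and 109 CPM in Xinβ KO/YAP, a log2 fold change of -0.49 ± 0.18 (adjusted p = 0.0709, limma). Cpt1a stood at 116, 126, 95.4 and 125 CPM, a log2 fold change of -0.41 ± 0.18 (adjusted p = 0.139, limma). Both passed when KO/GFP heart 2 was left out, at -0.67 (adjusted p = 0.00705) for Plin5 and -0.63 (adjusted p = 0.00342, limma) for Cpt1a. Without KO/GFP heart 4, the highest of its group for both genes, the falls were smaller and neither gene passed. The values were then -0.31 for Plin5 and -0.24 for Cpt1a.

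Angptl4 stood at 80.7, 83.2, 35.8 and 45.4 CPM in Xinβ KO/YAP, a log2 fold change of -0.91 ± 0.36 (adjusted p = 0.105, limma). Ucp3 stood at 80.5, 88.0, 45.0 and 68.9 CPM, a log2 fold change of -0.52 ± 0.30 (adjusted p = 0.257, limma). KO/GFP heart 3, the low heart of its group for both genes, overlapped the KO/YAP hearts, and without it both passed, at -1.26 (adjusted p = 0.0168) for Angptl4 and -0.85 (adjusted p = 0.0299, limma) for Ucp3. KO/GFP heart 4 was the highest and KO/YAP heart 3 the lowest of its group for both genes. Leaving out either of these hearts made both falls smaller, and neither gene passed.

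Pdk4 was the gene whose difference had the opposite sign. Its Xinβ KO/YAP hearts stood at 1333, 1397, 355 and 714 CPM, so that hearts 1 and 2 exceeded all 4 KO/GFP hearts while heart 3 lay below all of them. The log2 fold change was 0.28 ± 0.44 (adjusted p = 0.707, limma), with a 95% interval from -0.64 to 1.21. It was 0.69 without KO/YAP heart 3, 0.54 without KO/GFP heart 4 and between 0.0061 and 0.16 without KO/GFP heart 2 or 3 or KO/YAP heart 1 or 2.

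**Figure D2:**
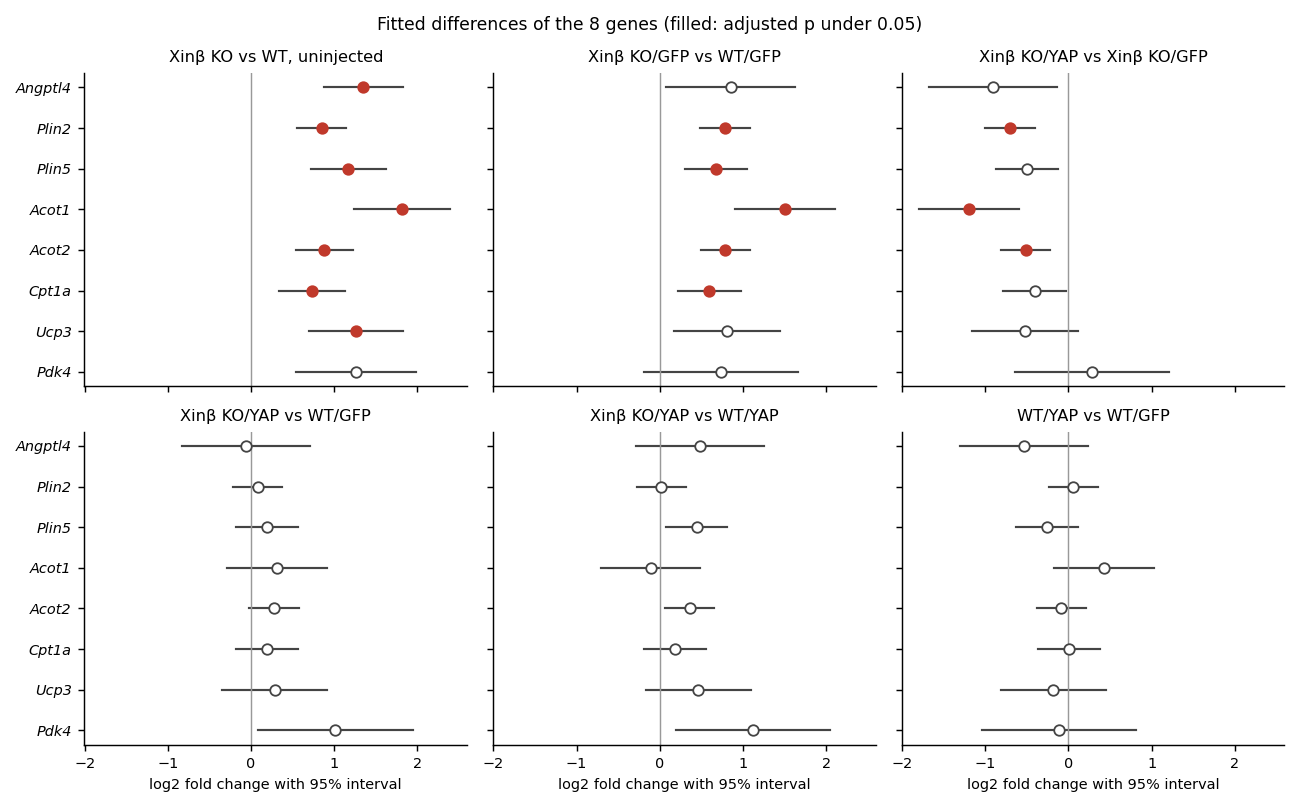
Fitted log2 fold changes of the 8 genes with 95% intervals in 6 comparisons, where filled points passed the adjusted threshold. In uninjected hearts 7 points are filled on the right of 0, under GFP 5, and in Xinβ KO/YAP against Xinβ KO/GFP 3 are filled on the left, whereas none is filled in the lower row.

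The effect of YAP differed between knockout and WT hearts for 2 of the 8 genes, by the interaction term of the same model, against 3.77% of all genes called lower. The YAP effect in knockout hearts minus that in WT hearts was -1.62 ± 0.40 on the log2 scale for Acot1 (adjusted p = 0.0245, limma), from -1.19 in knockout and 0.43 in WT hearts, of which the WT value was not called. For Plin2 it was -0.76 ± 0.20 (adjusted p = 0.0310, limma). Leaving out 1 heart moved the Acot1 value between -1.90 and -1.34 and the Plin2 value between -0.88 and -0.65. Acot1 lost its call without KO/GFP heart 1, KO/YAP heart 1 or WT/YAP heart 3, at adjusted p from 0.0513 to 0.0536. Plin2 lost its call without any 1 of 8 hearts, namely KO/GFP 1 or 4, KO/YAP 1 or 3, WT/GFP 1 or 2 and WT/YAP 2 or 3, at adjusted p from 0.0540 to 0.0649, and with plain CPM (adjusted p = 0.0802). Without KO/GFP heart 2, Cpt1a passed at -0.64 (adjusted p = 0.0309, limma).

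In WT hearts, active YAP called none of the 8 genes, none of the 14597 genes tested (0% called), and none of the 8 at an unadjusted p under 0.05 in limma. 1011 of all genes had an unadjusted p under 0.05. No member was called by edgeR's 2 tests or DESeq2. The log2 fold changes ran from -0.54 ± 0.36 for Angptl4, whose WT/YAP hearts stood at 56.3, 20.99, 55.2 and 42.9 CPM, to 0.43 ± 0.28 for Acot1, at 47.7, 31.8, 54.7 and 48.5 CPM. Without WT/YAP heart 2, the low heart, Angptl4 was at -0.23. The groups overlapped for all 8 genes. Plin2, with the smallest spread, had a 95% interval from -0.24 to 0.36.

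Xinβ KO/YAP hearts were then set against WT/GFP hearts, the injected control group of the other genotype. None of the 8 genes was called in limma, edgeR or DESeq2, 1 had an unadjusted p under 0.05, and 0.0206% of all genes were called. That gene was Pdk4, with a log2 fold change of 1.01 ± 0.44 (adjusted p = 0.781, limma) and a 95% interval from 0.09 to 1.94. For Plin2 the difference was 0.08, with a 95% interval from -0.22 to 0.38, and for Acot1 it was 0.32, from -0.28 to 0.92. The Xinβ KO/GFP differences from the same WT/GFP hearts, given above, were 0.78 for Plin2 and 1.51 for Acot1. The interval ran from -0.83 to 0.71 for Angptl4 and from -0.35 to 0.92 for Ucp3. Acot2 had 0.28, with a 95% interval from -0.02 to 0.57, and Plin5 and Cpt1a each had 0.19. In all, 7 of the 8 genes had positive values, with a median log2 fold change of 0.23, against 0.0003 over all genes.

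Against WT/YAP hearts, Xinβ KO/YAP hearts had no gene of the 8 called in limma, where 0.0411% of all genes were called. Unadjusted p values under 0.05 were found for Plin5, Pdk4 and Acot2. Plin5 was the gene whose groups were fully apart, against 4.51% of all genes with KO/YAP on top, with WT/YAP hearts at 88.8, 68.0, 68.6 and 62.3 CPM and a log2 fold change of 0.44 ± 0.18 (adjusted p = 0.376, limma). Pdk4 had 303, 519, 402 and 329 CPM in WT/YAP and a log2 fold change of 1.12 ± 0.44 (adjusted p = 0.369, limma), and it was called by edgeR's exact test (adjusted p = 0.0392) but not by the quasi-likelihood test or DESeq2. For Acot2 the value was 0.36 ± 0.14 (adjusted p = 0.369, limma). Here too 7 of the 8 genes had positive values, with a median log2 fold change of 0.40, against 0.0038 over all genes.

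The 8 genes differed in how much hearts of 1 group scattered. The within-group SD on the log2 scale, pooled over the injected groups, was 0.72 for Pdk4, 0.59 for Angptl4, 0.49 for Ucp3 and 0.46 for Acot1, larger than that of 93.1% to 98.3% of genes. For Acot2 and Plin2 it was 0.21, against a median of 0.22 over all genes. Pdk4 also scattered most of the 8 in uninjected hearts, at 0.55, with Acot1 and Ucp3 at 0.42 and a median over genes of 0.23.

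Single hearts stood high or low for many of the genes together. Xinβ KO/GFP heart 4 was the highest of its group for all 8 genes, with a median log2 difference of 1.31 from the WT/GFP mean, and heart 1 followed at 1.01, against 0.54 and 0.47 for hearts 2 and 3. WT/GFP heart 3 was the highest of its group for 6 genes. Uninjected KO heart 4 was the lowest of its group for 6 genes, with a median of 0.61 against 1.10 to 1.47 in the other 3 KO hearts, and Xinβ KO/YAP heart 3 was the lowest of its group for 6 genes, with a median of -0.04. The nursing state of each pup was not given in the sources used here, and was not tested.

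**Figure D3:**
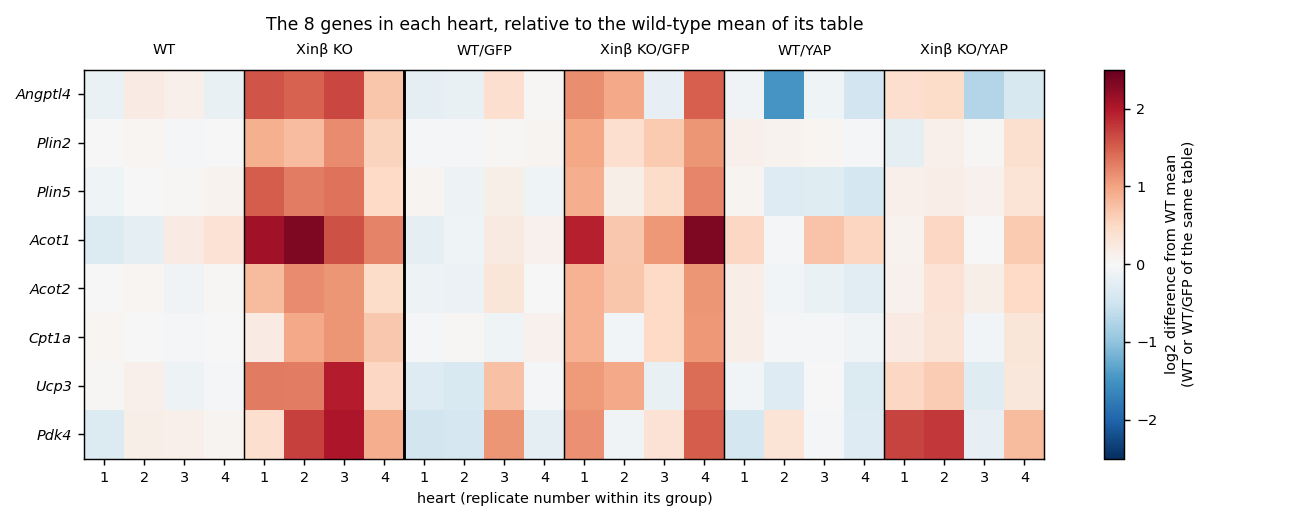
Each column is 1 heart and each row 1 gene, and the colour gives the log2 difference from the mean of WT hearts (uninjected) or WT/GFP hearts (injected) of the same table. The 4 uninjected Xinβ KO hearts are above WT for all 8 genes, Xinβ KO/GFP hearts 1 and 4 stand out from hearts 2 and 3, and Xinβ KO/YAP hearts have medians from -0.04 to 0.41 while Pdk4 reaches 0.80 to 1.77 in hearts 1, 2 and 4.

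Per kilobase of exon, the scale on which levels of different genes can be compared, Pdk4 was the most abundant of the 8 in all 6 groups. Its mean was 123 ± 18.6 CPM per kb (SD, n = 4) in uninjected WT hearts and 322 ± 153 in Xinβ KO. Acot2 came next in WT at 50.3 ± 1.95, before Plin5 at 37.4 ± 2.06, Ucp3 at 25.0 ± 1.77 and Cpt1a at 20.9 ± 0.61. Angptl4 at 14.3 ± 2.03, Plin2 at 14.1 ± 0.44 and Acot1 at 10.7 ± 2.55 were the lowest, and the values of these last 3 overlapped between hearts. In Xinβ KO hearts Acot1 reached 39.3 ± 13.1 CPM per kb.

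Within its kinase family, Pdk4 made up 56.1% ± 4.39 (SD, n = 4) of the summed Pdk1 to Pdk4 level per kb in uninjected WT hearts and 70.8% ± 8.39 in Xinβ KO. An exact two-sided permutation test gave p = 0.0286, the smallest that 4 against 4 hearts allow, and an adjusted p of 0.214 over the 15 share tests made. The Pdk4 share was 63.4% ± 7.77 in Xinβ KO/GFP against 57.9% ± 10.5 in WT/GFP (exact permutation p = 0.400), a difference of 5.51 points that was 10.8 points without WT/GFP heart 3 and 2.68 without KO/GFP heart 4, and 72.5% ± 13.6 in Xinβ KO/YAP against Xinβ KO/GFP (exact permutation p = 0.371), a difference of 9.12 points that was 14.9 points without KO/YAP heart 3 and 5.48 and 5.56 without KO/YAP hearts 1 and 2. The kinases Pdk1, Pdk2 and Pdk3 were not called in uninjected hearts, at log2 fold changes of 0.52, 0.27 and 0.13. Under GFP Pdk2 rose by 0.45 ± 0.12 (adjusted p = 0.0207, limma). Cpt1a made up 9.98% ± 1.34 of the summed Cpt1a and Cpt1b level in WT and 15.4% ± 2.71 in Xinβ KO (exact permutation p = 0.0286, adjusted p = 0.214), and Cpt1b, the muscle form, was not called there at a log2 fold change of 0.03. Under GFP Cpt1b rose by 0.47 ± 0.10 (adjusted p = 0.00645, limma), and the Cpt1a share was 8.90% ± 2.17 against 8.10% ± 1.34 (exact permutation p = 0.514). The shares of Plin2 and Plin5 among Plin2 to Plin5, and of Ucp3 among Ucp2 and Ucp3, had exact permutation p values from 0.0857 to 0.743.

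Paralogs and partners of the 8 genes were counted by family, where 3.23% of all genes rose in uninjected hearts and 6.43% under GFP, so that a count of 1 in a family of this size is near the background. Of 11 pyruvate dehydrogenase genes, none was called in uninjected hearts and Pdk2 was called under GFP. Of 7 tested in the angiopoietin-like and lipase list, Lpl rose and Angptl1 fell in uninjected hearts, and of 8 under GFP Lpl rose and Angptl2 fell. Of 3 uncoupling carriers, Ucp2 rose in uninjected hearts and Slc25a27 under GFP. Of 10 other thioesterases 2 rose in uninjected hearts, Acot3 and Acot11, and of 9 under GFP 2 rose, Acot7 and Acot11. In the lipid droplet list 4 of 11 rose in each comparison, and in the carnitine shuttle list 3 of 9 and 7 of 9.

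Among the closest relatives, Plin4, another droplet coat protein, rose in both genotype comparisons, by 0.94 ± 0.22 in uninjected hearts (adjusted p = 0.0365) and by 0.91 ± 0.19 under GFP (adjusted p = 0.00413, limma). Plin3 rose under GFP by 0.47 ± 0.10 (adjusted p = 0.00417, limma) and had 0.27 ± 0.13 in uninjected hearts (adjusted p = 0.247). Ucp2 rose in uninjected hearts by 0.80 ± 0.17 (adjusted p = 0.0289, limma) and had 0.28 ± 0.15 under GFP (adjusted p = 0.243). Acot3, a peroxisomal thioesterase from the same cluster as Acot1 and Acot2, rose in uninjected hearts by 0.84 ± 0.15 (adjusted p = 0.0127, limma) and stood at -0.02 ± 0.31 under GFP, at mean levels of only 2.88 to 8.25 CPM. Lpl, the lipase that Angptl4 inhibits, rose by 0.86 ± 0.15 (adjusted p = 0.0117) and by 0.56 ± 0.11 (adjusted p = 0.00257, limma), and Pnpla2, the droplet triglyceride lipase, rose by 0.85 ± 0.13 (adjusted p = 0.00808) and 0.90 ± 0.15 (adjusted p = 0.00124, limma).

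Of 13 genes for the receptors, their RXR partners and coregulators, 1 rose in uninjected Xinβ KO hearts, namely Pparg. Against 3.23% of all genes called higher there, 6.43% under GFP and 6.92% called lower with YAP in the knockout, counts of 1 or 2 of 13 are near the background. Pparg, best known from adipocytes, rose from 6.76 ± 0.56 to 15.8 ± 3.35 CPM (log2 fold change 1.09 ± 0.16, adjusted p = 0.00600, limma). It rose under GFP from 9.42 ± 0.91 to 19.4 ± 7.45 CPM (0.90 ± 0.21, adjusted p = 0.00820) and fell by 1.00 ± 0.21 in Xinβ KO/YAP to 8.77 ± 1.33 CPM (adjusted p = 0.00416, limma). Ppara, the receptor held mainly responsible for the fasting response, had log2 fold changes of -0.45 ± 0.38, -0.24 ± 0.28 and 0.68 ± 0.28 in these comparisons (adjusted p = 0.550, 0.630 and 0.118, limma), and Ppard had -0.02, -0.08 and -0.04. Under GFP the coactivator Ppargc1b rose by 0.35 ± 0.10 (adjusted p = 0.0298) and Rxrg fell by 0.51 ± 0.14 (adjusted p = 0.0226, limma). Leaving out 1 heart moved the number of the 13 called to between 1 and 4 in uninjected hearts, where the highest came without KO heart 1, and to between 1 and 5 under GFP, where the highest came without KO/GFP heart 2 and the lowest without KO/GFP heart 1 or 4. With YAP in the knockout the number was 1 to 3, highest without KO/YAP heart 3.

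Of 46 further targets listed for this work, 39 were tested and 7, among them Fgf21 and the Cyp4a genes, had no values and were not analysed here. In uninjected hearts 17 of the 39 rose, against 3.23% of all genes, and none fell. Positive values were found for 37, with a median log2 fold change of 0.56, against 0.001 over all genes. The fatty acid transporter Slc27a1 rose by 0.95 ± 0.18 (adjusted p = 0.0165), and Mlycd, which destroys the malonyl-CoA that blocks Cpt1a, rose by 0.92 ± 0.18 (adjusted p = 0.0177, limma). The count of 17 was fragile, since it was 4 without WT heart 1 or WT heart 3 and 27 without KO heart 4.

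Under GFP 23 of the 39 rose, against 6.43% of all genes, and none fell, with a median of 0.42. Slc27a1 rose by 1.15 ± 0.11 (adjusted p = 9.09e-06) and Mlycd by 0.77 ± 0.14 (adjusted p = 0.00195, limma). In Xinβ KO/YAP against Xinβ KO/GFP 19 of the 39 fell, where 6.92% of all genes did, and none rose, with a median of -0.38. Slc27a1 fell by 0.92 ± 0.11 (adjusted p = 6.16e-05) and Mlycd by 0.73 ± 0.14 (adjusted p = 0.00238, limma). In the interaction 7 of the 39 were called lower, against 3.77% of all genes. Leaving out 1 heart gave 18 to 28 under GFP, 14 to 22 for YAP in the knockout, and 2 to 12 for the interaction, where the lowest count came without KO/GFP heart 1, KO/YAP heart 3 or WT/GFP heart 2 and the highest without KO/GFP heart 2.

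Of 26 fasting genes that answer to FOXO factors or the glucocorticoid receptor, 16 rose and none fell in uninjected Xinβ KO hearts, with a median log2 fold change of 1.133. Under GFP 19 of 25 tested rose, and 16 of 25 fell in Xinβ KO/YAP against Xinβ KO/GFP. Across all genes tested, 3.23% were called higher in uninjected hearts, 6.43% higher under GFP and 6.92% lower with YAP in the knockout. This list, like the others, was chosen with earlier results of these data known. Leaving out 1 heart gave 11 to 18, 16 to 19 and 11 to 18 genes in these 3 comparisons. Among them, Hif3a, a hypoxia-inducible factor subunit, rose by 3.33 ± 0.39 (adjusted p = 0.00269) in uninjected hearts, Klf15, a glucocorticoid-induced regulator of fuel use, by 1.87 ± 0.22 (adjusted p = 0.00254), and Fkbp5, a steroid receptor cochaperone, by 2.11 ± 0.32 (adjusted p = 0.00752, limma). In the knockout with YAP, Hif3a fell by 3.38 ± 0.53 (adjusted p = 0.000702), Klf15 by 1.47 ± 0.30 (adjusted p = 0.00403) and Fkbp5 by 2.09 ± 0.33 (adjusted p = 0.000640, limma). In uninjected hearts Xdh, at 3.21 ± 0.41 (adjusted p = 0.00365), and Mt2, at 2.95 ± 0.31 (adjusted p = 0.00163, limma), changed more than Klf15 and Fkbp5. Trim63, at 0.21 ± 0.16 (adjusted p = 0.494), and Tsc22d3, at 0.68 ± 0.31 (adjusted p = 0.238, limma), were not called there. The median of this list, 1.133, was close to the 1.21 of the 8 genes, and no test was made between the lists.

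**Figure D4:**
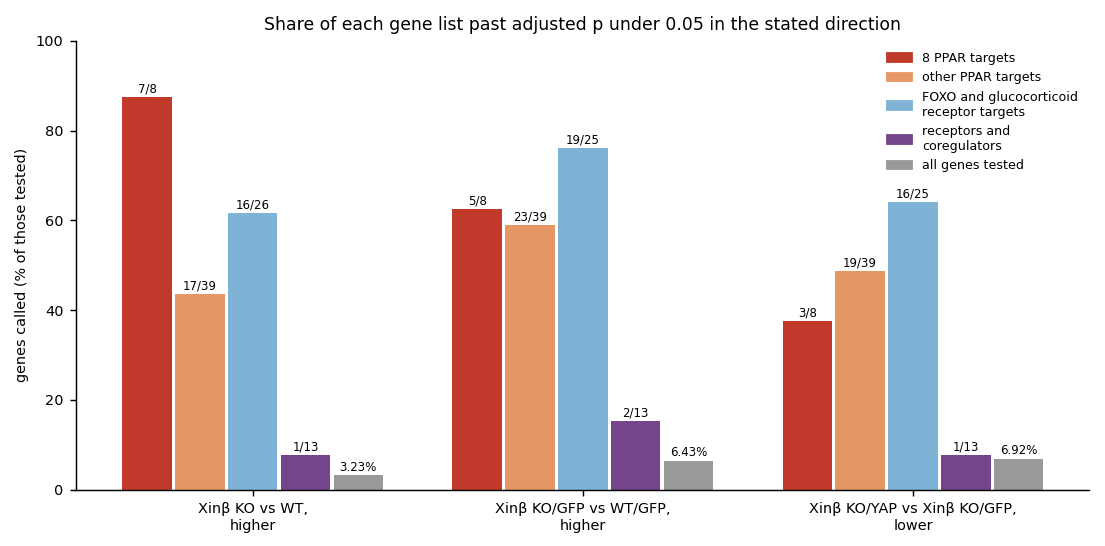
Bars give the percentage of tested genes in each list that passed the adjusted threshold in the stated direction, with counts above the bars and all genes tested in grey. The 8 genes, other PPAR targets and FOXO or glucocorticoid receptor targets lie above the 3.23%, 6.43% and 6.92% of all genes in the 3 comparisons, while the receptor list, with 1, 2 and 1 of its 13 genes, is within about 1 gene of that background.

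All genes other than the 8 were ranked by how closely they followed the 8 over 24 hearts, using the root mean square difference (in log2 units) from the median profile of the 8, where each profile is expressed relative to the WT or WT/GFP mean of its table. Among 13733 genes tested in both tables, the nearest was Slc25a34, a mitochondrial carrier, at 0.12, followed by Impa2 at 0.15, Mlycd at 0.16 and Ephx2, a lipid epoxide hydrolase, at 0.17. The next 6 were Elmod3, Cep128, Lpcat3, Inafm2, Spaar and Asb11, the last at 0.21. Slc25a34 had 90.9 ± 4.79 and 191 ± 47.1 CPM in uninjected WT and Xinβ KO, and 73.5 ± 13.4, 136 ± 45.1, 61.6 ± 7.16 and 91.9 ± 18.6 CPM in WT/GFP, Xinβ KO/GFP, WT/YAP and Xinβ KO/YAP. Of these 10 genes, 6 were also among the 10 highest by Pearson correlation. Taken one by one, Angptl4 and Ucp3 differed by 0.33, with no other gene nearer to Angptl4, whereas 4 other genes were nearer to Ucp3, the nearest being Slc25a34 at 0.27. Cpt1a was nearest to Acacb at 0.11, Acot2 to Impa2 at 0.12, and Plin2 to Mlycd at 0.16, whereas Pdk4 had no close follower, its nearest being Corin at 0.49. Acot1 was nearest to Pim3 at 0.33.

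Markers of other cell types moved with the same comparisons, and their part in the results was not tested. Of all genes, 3.46% were called lower in uninjected Xinβ KO, 7.22% lower under GFP and 7.85% higher with YAP in the knockout, so that a count of 1 of 8 markers is near the background. The summed level of 8 fibroblast markers was 5146 to 5380 CPM in uninjected WT hearts and 2525 to 3869 CPM in Xinβ KO, and 4 of 8 were called lower. Under GFP 6 of 8 fibroblast markers were called lower and 6 of 8 were called higher in Xinβ KO/YAP against Xinβ KO/GFP, with sums of 4615 to 5447 CPM in WT/GFP, 2156 to 3580 CPM in Xinβ KO/GFP and 4990 to 6002 CPM in Xinβ KO/YAP. Of the macrophage markers, 5 of 7 tested were called lower in uninjected Xinβ KO, 5 of 8 lower under GFP and 6 of 8 higher with YAP in the knockout. Tnnt2 and Pln, 2 of 8 cardiomyocyte markers, were called higher in both genotype comparisons and lower with YAP in the knockout, and the cardiomyocyte sum was 59236 to 65954 CPM in uninjected WT and 65592 to 83812 CPM in Xinβ KO. Erythroid markers had 5 of 7 called lower under GFP and none called in the other 2 comparisons.

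Adipocytes matter for this list, because several of the 8 genes are also high in fat. Of 8 adipocyte markers, Lipe alone had values here, and the other 7, Adipoq and Plin1 among them, had none and so were not analysed. Lipe, hormone-sensitive lipase, rose by 1.15 ± 0.26 in uninjected Xinβ KO (adjusted p = 0.0339) and by 0.68 ± 0.21 under GFP (adjusted p = 0.0365, limma), with 36.1 to 43.9 CPM in uninjected WT and 49.9 to 126 CPM in Xinβ KO. Of 6 brown adipocyte markers tested, none was called in uninjected hearts and 1, Dio2, was called lower under GFP and higher with YAP in the knockout. Of 8 hepatocyte markers 1 was tested, Ahsg, and it was called higher in both genotype comparisons and lower with YAP in the knockout, at summed hepatocyte levels of at most 35.3 CPM in any heart. Skeletal muscle markers stayed at or below 8.60 CPM in sum, with 1 of 2 tested, Myh8, called higher with YAP in the knockout. Of 8 endothelial markers, 1 was called higher (Fabp4, also in the list of other PPAR targets) and 1 lower in uninjected Xinβ KO, 1 higher and 3 lower under GFP, and 2 each way with YAP in the knockout.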

How the data were processed

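Hearts were grouped by genotype and vector as labelled. Per the submitters' notes and the study's methods, the authors trimmed reads (cutadapt 2.3, FastQC), aligned them to GRCm38 (HISAT2 2.1.0), counted with StringTie 1.3.4 and its prepDE script, and scaled with edgeR 3.26.1. The deposited values, a normalized signal per gene, are CPM on scaled library sizes, in 1 table for uninjected and 1 for injected hearts. They came out as whole counts (tolerance 0.05 of a count) for at least 99.95% of values, and those counts gave the depths and served edgeR and DESeq2. Intervals are at the 95% level.

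Genes above 1 CPM in at least 4 uninjected or 8 injected hearts were tested with limma 3.58.1 (R 4.3.3) on log2(value + 1), with a mean-variance trend and all 16 injected hearts in 1 model, Benjamini-Hochberg adjustment and a threshold of 0.05. Alternatives used edgeR 4.0.16, DESeq2 1.42.0, other scalings, filters, pseudocounts, a Y-linked level as covariate, a replicate block and each heart left out. On simulated 2-fold changes in 200 genes the fit recovered 58.5% in the uninjected and 83% in the GFP comparison. Family shares used exact two-sided permutation tests. Promoters came from RefSeq, and Python 3.11.15 made the tables.

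The members and all gene lists were chosen with earlier results of these data known. Named genes were the 8 members, Xirp2, genes of the lists that passed a test, the closest paralogs, up to 4 per list with the largest changes, and the genes nearest in profile. All gene columns of the tables were used. The values of 1 gene of the lists are not reported here.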

Additional observations from a re-analysis of the deposited data

Results flagged for a closer look

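Of 78 groups of 4 hearts examined for a single value far from the rest, 3 had one, where chance gives about 1 in 20. Pdk4 in WT/GFP heart 3 stood at 888 CPM, against 299.5 to 345 CPM in the other WT/GFP hearts. In the same heart Pdk4 made up 73.7% of the summed Pdk1 to Pdk4 level, against 52.3% to 52.9% in the others. In Xinβ KO/YAP heart 3, Cpt1a made up 7.20% of the summed Cpt1a and Cpt1b level, against 8.48% to 8.54% in the others.

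The YAP effect differed between knockout and WT hearts for 2 genes by the interaction term in limma. The difference was -1.62 for Acot1 (adjusted p = 0.0245) and -0.76 for Plin2 (adjusted p = 0.0310) on the log2 scale.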

How the results depend on the processing

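The number of the 8 genes called was 7 in uninjected hearts, 5 under GFP, 3 for YAP in the knockout and 2 for the interaction. At an adjusted p under 0.01 it was 3, 3 and 0 in the first, second and last of these. With just the compared groups in the fit it was 3 under GFP and 1 for YAP in the knockout, with plain CPM it was 1 for the interaction, and edgeR's exact test called 1 in Xinβ KO/YAP against WT/YAP. Leaving out 1 heart gave 5 to 8, 3 to 7, 2 to 5 and 0 to 3. Replicate numbers did not pair the hearts (correlations from -0.19 to 0.14), and a replicate block gave 7, 5, 3 and 2 called genes, with Pdk4 in place of Cpt1a in uninjected hearts.

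Signs turned in 16 log2 fold changes, all of genes not called in the comparison concerned. Angptl4 in Xinβ KO/YAP against WT/GFP was 0.0051 in edgeR's quasi-likelihood test and 0.0088 in DESeq2, and -0.23 to 0.16 with 1 heart left out, where Plin2 was -0.0302 to 0.186. Plin2 against WT/YAP was -0.016 with quantile normalization and -0.0895 to 0.127 with 1 heart left out. For YAP in WT, Cpt1a was -0.028 with the Y-linked covariate and -0.0444 to 0.0457 with 1 heart left out, where Pdk4 was -0.26 to 0.26, Ucp3 -0.31 to 0.0633 and Acot2 -0.17 to 0.0147. With 1 heart left out, the uninjected share differences were 11.6 to 17.9 points for Pdk4 and 4.39 to 6.35 for Cpt1a, the highest without Xinβ KO heart 4. The Cpt1a difference was 9.04 in another setting that left out no heart. For 4 against 3 hearts the exact permutation p was 0.0571 at the least. The Plin5 share difference under GFP was -2.35 to 0.40 with 1 heart left out. The cause was not tested.

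Over all genes, 1044 were called in uninjected hearts, 1993 under GFP, 2156 for YAP in the knockout and 1104 for the interaction. In uninjected hearts other settings gave 266 to 1955 (1594 with plain CPM) and leaving out 1 heart 379 to 2098. Under GFP the ranges were 842 to 2393 and 1262 to 2756, for YAP in the knockout 951 to 2747 and 1480 to 2500, and for the interaction 271 to 1545 (707 with the replicate block) and 631 to 1474. Where limma called 3, 0 and 6 genes (Xinβ KO/YAP against WT/GFP, WT/YAP against WT/GFP and Xinβ KO/YAP against WT/YAP), other settings called 1 to 24, 0 to 33 and 2 to 226. Plain CPM shifted the median of all genes by -0.12 in uninjected hearts and split the calls into 353 higher and 1241 lower, against 504 and 540. Under GFP it gave 590 and 1759, against 939 and 1054. For YAP in the knockout it gave 2156 and 591, against 1146 and 1010, and for the interaction 884 and 345, against 554 and 550.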
